A study of Mus musculus with 6 samples.

Results

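The mammalian circadian clock was examined in hair follicle stem cells of mice through 10 genes of its core loop, namely Clock, Arntl (also called Bmal1), Npas2, Per1, Per2, Per3, Cry1, Cry2, Nr1d1 and Dbp. A gene entered when the array annotation gave a feature its symbol and no other symbol. This held for 9 of the 10 genes, each with 1 feature, among 22180 genes measured in all. Per2 was left out because its feature carried more than 1 symbol, so no value is given for it. Cry2 also had 1 further feature with more than 1 symbol, which was not used. The study hybridised RNA of mouse skin cells, sorted at postnatal day 49 on CD34 and α6-integrin, to Affymetrix Mouse Gene 2.0 ST arrays, 1 array per sample. There were 3 arrays of K14-sPLA2-IIA transgenic mice (TG) and 3 arrays of wild-type mice (WT). K14 stands for keratin 14, whose promoter drives genes in the basal epidermis and in the outer root sheath of the follicle, and so not in the sorted cells alone. The species of the transgene is not stated in the labels. sPLA2-IIA is a secreted phospholipase A2, which frees fatty acids from membrane phospholipids. The sources used here do not give strain, sex, the number of mice per sample or the time of day at collection. The p-values thus cover the spread among these 6 arrays only, which may be technical. The question was which genes differ in these cells when the transgene is present.

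The clock is a feedback loop of transcription factors. CLOCK or its paralogue NPAS2 pairs with ARNTL and activates genes that carry E-boxes, among them the Per and Cry genes, Nr1d1 and Dbp. PER and CRY proteins then inhibit the activating pair, while NR1D1 (REV-ERBα) represses Arntl through ROR elements. DBP activates genes with D-boxes, which the repressor NFIL3 also binds. In tissues of normal mice, messenger RNA of Arntl and that of Nr1d1 or Dbp peak at opposite times of day. Clock genes cycle in skin, and in mice lacking Arntl the growth phase of the hair cycle starts late.

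Promoter sequences are shown for 5 genes in which these elements were found, since the results below turn on these genes. They come from RefSeq (build GRCm38.p6) and run from 250 bases before to 50 bases after an annotated start. All 9 measured genes matched the table. Capitals mark the E-box CACGTG, the E-prime box CACGTT, the D-boxes TTATGTAA and TTACGTAA, the ROR element TAGGTCA or the cAMP element TGACGTCA, each searched on both strands (AACGTG is CACGTT read on the other strand). No 2 matches overlapped in these windows. The lines give Arntl at chr7:113207261-113207560 (plus strand, the second of 2 starts), Per1 at chr11:69098699-69098998 (plus strand, the first of 2 starts), Per3 at chr4:151044616-151044915 (minus strand), Cry2 at chr2:92434020-92434319 (minus strand) and Nr1d1 at chr11:98775328-98775627 (minus strand).
Arntl: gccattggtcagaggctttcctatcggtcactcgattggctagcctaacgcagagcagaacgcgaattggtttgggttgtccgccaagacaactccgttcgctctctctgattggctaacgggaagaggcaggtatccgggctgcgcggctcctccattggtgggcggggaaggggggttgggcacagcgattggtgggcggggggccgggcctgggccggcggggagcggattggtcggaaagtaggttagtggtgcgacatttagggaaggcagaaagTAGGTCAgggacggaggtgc
Per1: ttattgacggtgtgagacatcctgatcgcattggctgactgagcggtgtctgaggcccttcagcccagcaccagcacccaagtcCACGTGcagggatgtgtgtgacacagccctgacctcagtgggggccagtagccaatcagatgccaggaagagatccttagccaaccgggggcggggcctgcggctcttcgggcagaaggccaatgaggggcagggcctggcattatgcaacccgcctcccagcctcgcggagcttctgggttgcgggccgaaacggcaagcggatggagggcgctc
Per3: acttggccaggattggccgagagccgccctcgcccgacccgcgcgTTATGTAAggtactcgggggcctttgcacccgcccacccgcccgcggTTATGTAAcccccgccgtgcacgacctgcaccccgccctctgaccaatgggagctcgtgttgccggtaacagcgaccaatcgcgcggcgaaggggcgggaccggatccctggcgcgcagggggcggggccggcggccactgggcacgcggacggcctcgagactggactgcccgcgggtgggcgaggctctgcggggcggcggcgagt
Cry2: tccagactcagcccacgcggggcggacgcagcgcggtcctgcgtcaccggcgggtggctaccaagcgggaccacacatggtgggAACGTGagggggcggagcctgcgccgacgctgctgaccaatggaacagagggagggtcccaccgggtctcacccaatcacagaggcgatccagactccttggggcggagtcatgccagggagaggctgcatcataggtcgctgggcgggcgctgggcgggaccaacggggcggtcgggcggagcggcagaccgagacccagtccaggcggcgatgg
Nr1d1: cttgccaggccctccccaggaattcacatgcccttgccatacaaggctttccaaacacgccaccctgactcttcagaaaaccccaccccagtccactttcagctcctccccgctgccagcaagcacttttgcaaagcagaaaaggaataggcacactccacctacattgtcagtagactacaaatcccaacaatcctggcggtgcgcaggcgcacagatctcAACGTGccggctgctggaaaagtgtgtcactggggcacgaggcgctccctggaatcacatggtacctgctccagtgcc

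Counted from the start, the E-box of Per1 began at base -166 and that of Cry1 at base -60. The E-box was present in 7.15% of all 32851 promoters of the table, or at any start of 8.09% of its 27025 genes. The shares that follow are of these 27025 genes. An E-prime box was found in Cry1, Cry2 and Nr1d1, against 5.44% of genes. Per3 held 2 D-boxes, a motif found in 1.23% of genes. Arntl held the ROR element at base 31 from its second start, against 2.97% of genes. The cAMP element was found in 0 of the 9 genes and in 2.03% of genes. Clock, Npas2 and Dbp held none of these letters in this window. Each match describes the sequence only.

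The TG arrays carried the transgene signal. Pla2g2a, which encodes sPLA2-IIA, had log2 values of 12.61, 12.57 and 12.39 on TG arrays 1 to 3, against 6.77, 5.75 and 5.90 on WT arrays 1 to 3. It was the 1 gene past an adjusted p of 0.05 in limma, or 0.00451% of genes, with an adjusted p of 0.00255, and it no longer passed without TG array 1. Of the markers of the sorted cells, Krt15, a bulge keratin gene, lay between 13.27 and 13.50 on TG arrays and between 13.21 and 13.37 on WT arrays. Cd34, one of the sorting antigens, varied widely, with 11.57, 9.65 and 12.42 on TG arrays and 9.78, 9.89 and 13.07 on WT arrays. The 2 arrays numbered 3 therefore had the highest Cd34 values of their genotypes. In bulk RNA, fewer cells of a type and less RNA per cell cannot be told apart.

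For none of the 9 clock genes did the difference between genotypes pass the test against the spread of the arrays. In limma 0 of 9 passed after Benjamini-Hochberg adjustment over all genes, each with an adjusted p of 0.99996, and 0 of 9 had an unadjusted p under 0.05, against 2.77% of all genes. With the replicate number as a block, 1 of 9 had an unadjusted p under 0.05 (Per3), against 8.45% of all genes, and 0 of 9 passed after adjustment. No label says that arrays of the same number belong together. The pairing was checked only by correlations in these same data, so p-values with the block only describe. The TG minus WT difference was below 0 for 8 of the 9 and above 0 for Per1 alone, while 47.9% of all genes lay above 0. Its median over the 9 genes was -0.12, against a median of -0.0075 over all genes. The number above 0 was 3 without TG array 3 and 2 without any 1 of the other 5 arrays. Arrays of the 2 genotypes did not overlap for 1 of 9 genes with TG below (Per3), against 3.21% of all genes, and for 0 of 9 with TG above, against 3.99% of all genes.

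**Figure D1:**
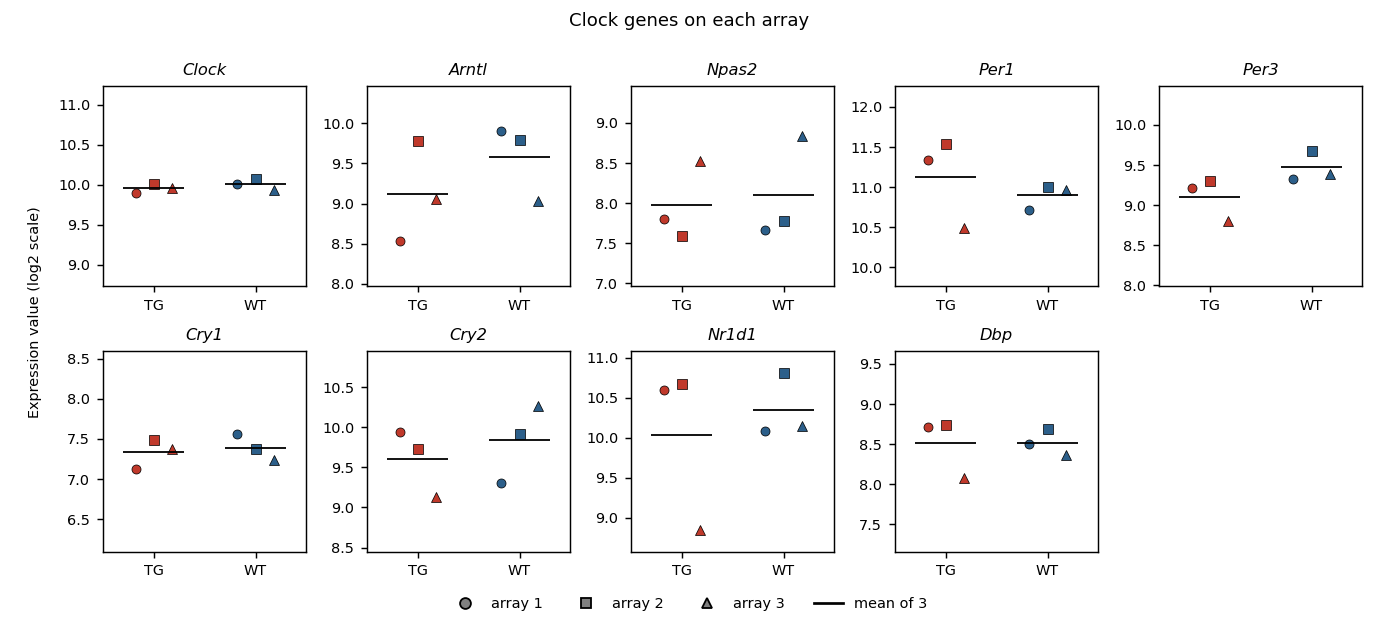
Log2 expression values of the 9 clock genes on each of the 3 TG and 3 WT arrays. Symbols mark the replicate number, bars are means of 3 arrays, and every panel spans the same height on the log2 scale. Clock hardly varied, Per3 alone had no overlap between genotypes, and Nr1d1 was lowest on TG array 3 at 8.85.

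Among the activators, Clock was nearly level across the arrays. It had log2 values of 9.90, 10.01 and 9.96 on TG arrays 1 to 3, against 10.01, 10.07 and 9.94 on WT arrays 1 to 3. The whole range over 6 arrays was 0.17, or 1.12-fold, and its standard deviation within a genotype was at the 2.0 percentile of all genes. Its difference was -0.05 ± 0.12 (SE) with a 95% interval from -0.33 to 0.23, or from 0.797-fold to 1.17-fold (TG over WT).

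Arntl, the partner that the loop cannot do without, varied much more. It had log2 values of 8.53, 9.78 and 9.06 on TG arrays 1 to 3, against 9.91, 9.79 and 9.03 on WT arrays 1 to 3. TG array 1 was the lowest of all, arrays 3 of both genotypes were alike, and the genotypes overlapped. The mean was 9.12 ± 0.63 in TG and 9.58 ± 0.48 in WT (SD, n = 3 each), and the difference was -0.45 ± 0.37 (SE, 95% interval -1.33 to 0.42). Leaving out TG array 1 gave -0.16, and leaving out TG array 2 gave -0.78. With array weights it was -0.99 (adjusted p = 0.294 in limma).

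Npas2, which encodes the paralogue of CLOCK, was highest on the arrays numbered 3. It had log2 values of 7.80, 7.59 and 8.53 on TG arrays 1 to 3, against 7.67, 7.78 and 8.84 on WT arrays 1 to 3. Both arrays numbered 3 lay above the other 4, as they did for 19.4% of all genes. The TG minus WT difference was -0.12 ± 0.38 (SE), which turned to 0.067 when TG array 2 was left out and to 0.25 when WT array 3 was. Npas2 was thus high on the arrays with the highest Cd34, but not on TG array 1, where Cd34 was 11.57. The part of the sort's make-up in its level was not tested.

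The Per and Cry genes encode the proteins that inhibit the activators. Per1 had log2 values of 11.34, 11.54 and 10.49 on TG arrays 1 to 3, against 10.72, 11.0 and 10.96 on WT arrays 1 to 3. TG arrays 1 and 2 were the 2 highest and TG array 3 was the lowest of the 6. The difference was 0.23 ± 0.28 (SE, 95% interval -0.44 to 0.90). Leaving out single arrays gave values between 0.018 (without TG array 2) and 0.54 (without TG array 3, adjusted p = 0.999 in limma). Without TG array 3, the remaining TG arrays lay above all WT arrays.

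Per3 was the clock gene with the clearest separation. It had log2 values of 9.21, 9.30 and 8.80 on TG arrays 1 to 3, against 9.33, 9.68 and 9.39 on WT arrays 1 to 3. All TG arrays lay below all WT arrays, although TG array 2 and WT array 1 differed by little. The difference was -0.37 ± 0.18 (SE), or 1.29-fold lower in TG, with a 95% interval from -0.80 to 0.07. By exact permutation (two-sided) p was 0.1, and no smaller value is possible with so few arrays. The difference stayed below 0 without each array in turn, between -0.46 and -0.21. With each array centred on its median the genotypes overlapped for Per3, with a difference of -0.33.

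Cry1 was nearly level, with log2 values of 7.13, 7.49 and 7.38 on TG arrays 1 to 3, against 7.56, 7.37 and 7.24 on WT arrays 1 to 3. Its difference was -0.06 ± 0.16 (SE, 95% interval -0.43 to 0.31), and leaving out TG array 1 gave 0.045, while leaving out WT array 1 gave 0.030. Cry2 varied more, with 9.94, 9.73 and 9.13 on TG arrays 1 to 3, against 9.31, 9.92 and 10.27 on WT arrays 1 to 3. It was lowest on TG array 3 and highest on WT array 3, and the genotypes overlapped. Its difference of -0.23 ± 0.31 (SE) depended on several arrays. It was -0.49 without WT array 1 and -0.40 without TG array 1, but -0.015 without WT array 3 and -0.00067 without TG array 3.

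Nr1d1, the repressor of Arntl, had the widest spread of the 9. It had log2 values of 10.60, 10.67 and 8.85 on TG arrays 1 to 3, against 10.09, 10.81 and 10.15 on WT arrays 1 to 3. The range of 1.95 corresponds to 3.88-fold, and its standard deviation within a genotype was at the 96.0 percentile of all genes. TG array 3 lay 1.78 below the mean of the other TG arrays, at the 0.89 percentile of that difference over all genes. The TG minus WT difference was -0.31 ± 0.50 (SE, 95% interval -1.51 to 0.90), and without TG array 3 it was 0.29.

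Dbp, the D-box activator and a common readout of the loop's output, had log2 values of 8.71, 8.74 and 8.08 on TG arrays 1 to 3, against 8.5, 8.69 and 8.37 on WT arrays 1 to 3. The means were 8.51 ± 0.37 in TG and 8.52 ± 0.16 in WT (SD, n = 3 each). Both arrays numbered 3 lay below the other 4, as they did for 28.8% of all genes. The difference of -0.01 ± 0.21 (SE) became 0.20 without TG array 3, where the remaining TG arrays lay above all WT arrays, and 0.073 without WT array 2. It also turned to 0.022 with each array centred on its median.

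**Figure D2:**
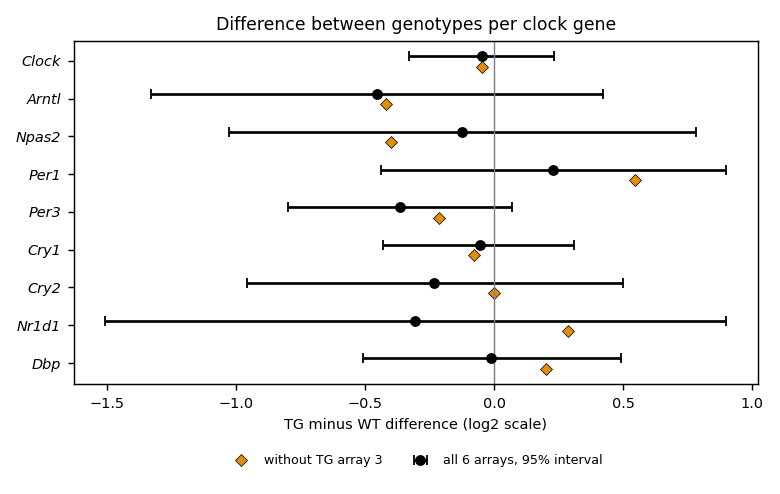
TG minus WT difference of each clock gene on the log2 scale. Circles are the values from all 6 arrays with 95% intervals of the limma fit, and diamonds are the values without TG array 3. All 9 intervals include 0, and Nr1d1 and Dbp lie on the other side of 0 without TG array 3.

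TG array 3 was low for several of these genes. Per1, Per3, Cry2, Nr1d1 and Dbp, or 5 of the 9, had their lowest value of all 6 arrays on TG array 3, as did 24.8% of all genes. On that array they lay 0.95, 0.46, 0.70, 1.78 and 0.64 below the mean of the other TG arrays. Clock and Cry1 differed there by 0.00 and 0.07, Arntl by -0.10 and Npas2 by 0.83. The array on which these 5 genes were low was not the array on which Arntl was highest or lowest. WT array 3, which shared the high Cd34, did not share the low values of Per1, Per3, Cry2 or Nr1d1. For Dbp it was the lowest WT array, at 8.37. The cause of the low values on TG array 3 was not tested. Without TG array 3, 3 of the 9 genes had no overlap between genotypes (Per1 and Dbp with TG above, Per3 with TG below), against 20.1% of all genes. Without WT array 3 there were 2, against 23.2% of all genes.

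Pairs of clock genes were compared over the 6 arrays, 36 pairs in all. By Pearson r, Nr1d1 and Dbp ran most closely together (Pearson r = 0.96 and Spearman rho = 0.77, with exact permutation p = 0.0153 and p = 0.103, and p = 0.275 after adjustment of the Pearson test over 36 pairs). Their r was 0.92 without TG array 3 and WT array 2, the 2 arrays farthest from the Nr1d1 median. By rank, Per1 and Dbp did (Pearson r = 0.84 and Spearman rho = 0.94, with exact permutation p = 0.0333 and p = 0.0167, and p = 0.300 after adjustment), with r = 0.60 without TG arrays 2 and 3. Clock and Arntl had r = 0.92 and rho = 0.83 (exact permutation p = 0.0250 and p = 0.0583, and p = 0.300 after adjustment), with r = 0.97 without TG array 1 and WT array 2. Arntl and Cry1 had r = 0.89 and rho = 0.83 (exact permutation p = 0.0153 and p = 0.0583, and p = 0.275 after adjustment), with r = 0.67 without TG array 1 and WT array 1. Per3 and Nr1d1 had r = 0.84 and rho = 0.54 (exact permutation p = 0.0639 and p = 0.297, and p = 0.357 after adjustment), but r was -0.76 without TG array 3 and WT array 2, so that relation rested on those arrays. Arntl and Nr1d1, which peak at opposite times in cycling tissue, had r = 0.24 and rho = 0.09 (exact permutation p = 0.729 and p = 0.919, and p = 0.885 after adjustment), with r = 0.79 without TG array 1 and WT array 1. Arntl and Dbp had r = 0.25 and rho = 0.03 (exact permutation p = 0.633 for r, and p = 0.834 after adjustment). Per1 and Nr1d1 had r = 0.80 and rho = 0.83. Their exact permutation p was 0.0458 and 0.0583, and 0.330 after adjustment. The lowest r was -0.78, for Npas2 and Dbp, with rho = -0.71. Their exact permutation p was 0.0694 and 0.136, and 0.357 after adjustment. That r was 0.14 without both arrays numbered 3. No pair passed after adjustment.

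Over the same 6 arrays, the 3 genes most like Arntl by Pearson r were Axin2 (0.992), Dclre1b (0.988) and Gm13369 (0.983), and 185 genes exceeded 0.9. Those most like Dbp were Serinc5 (0.995), Ubxn4 (0.993) and Krt74 (0.991), and 770 genes exceeded 0.9. Those most like Per1 were Defb14 (0.994), Tmem9b (0.985) and Fam214b (0.984), and 129 genes exceeded 0.9. With so few arrays and so many genes, these values only describe likeness.

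**Figure D3:**
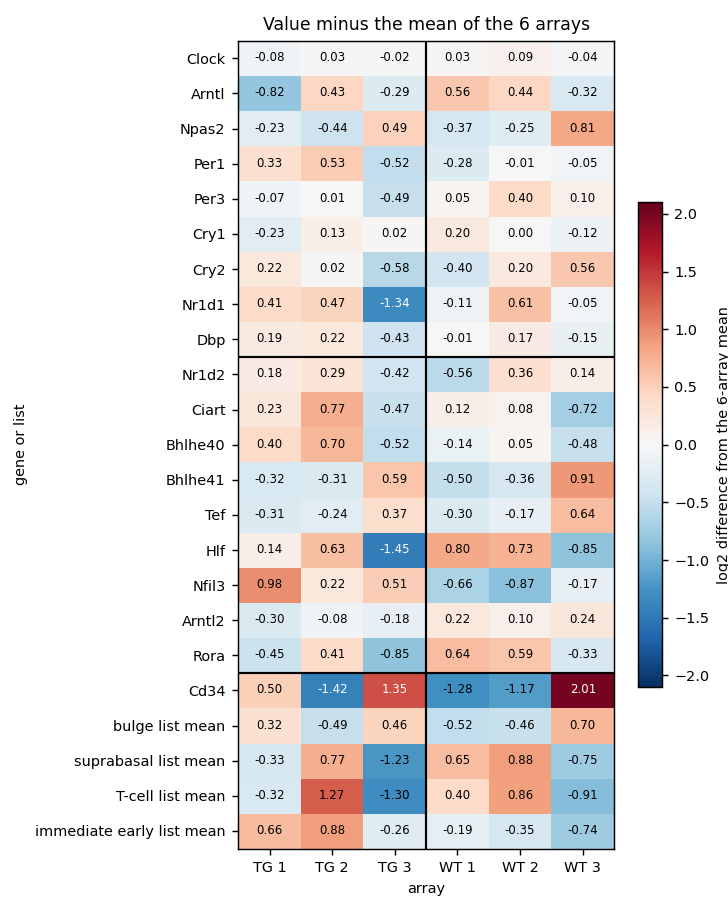
Log2 value minus the mean of the 6 arrays for the 9 clock genes (top), other clock genes (middle) and Cd34 with the means of 4 marker or response lists (bottom), with TG arrays left and WT arrays right. Nr1d1 was 1.34 and Hlf 1.45 below their means on TG array 3, and Nfil3 was above its mean on the TG arrays and below it on the WT arrays.

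Other genes of the clock and its outputs were taken from lists of 37 further genes, of which 31 had a feature with 1 symbol. In limma 0 of the 31 passed the adjusted threshold, 2 had an unadjusted p under 0.05 with TG higher (Nfil3 and Tspan4), against 1.93% of all genes, and 1 with TG lower (Arntl2), against 0.843% of all genes. With the replicate block 6 of the 31 had an unadjusted p under 0.05 (Arntl2, Rora, Hlf, Nfil3, Csnk1e and Tspan4), against 8.45% of all genes, and 0 passed after adjustment. There were 18 above 0 and 13 below 0, with a median difference of 0.036, while 47.9% of all genes lay above 0. Genotypes did not overlap for 3 with TG above (Nfil3, Tspan4 and Csnk1e), against 3.99% of all genes, and for 2 with TG below (Arntl2 and Marveld1), against 3.21%.

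Nfil3, the D-box repressor that opposes DBP, had the largest of these differences. It had log2 values of 10.31, 9.55 and 9.84 on TG arrays 1 to 3, against 8.68, 8.46 and 9.16 on WT arrays 1 to 3. Every TG array lay above every WT array. The difference of 1.14 ± 0.26 (SE), or 2.20-fold, had an unadjusted p of 0.00358 and an adjusted p of 0.99996 in limma, so it did not pass. Per3, whose promoter holds the 2 D-boxes shown above, lay lower in TG on every array, and any link between these values was not tested.

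The arrays of the genotypes overlapped for the other D-box factors. Hlf, which encodes a relative of DBP, had 9.72, 10.21 and 8.13 on TG arrays 1 to 3, against 10.37, 10.30 and 8.73 on WT arrays 1 to 3. Tef, which encodes another, had 7.79, 7.86 and 8.47 on TG arrays 1 to 3, against 7.80, 7.93 and 8.74 on WT arrays 1 to 3. Both arrays numbered 3 were thus low for Hlf and high for Tef, and the differences between genotypes were -0.45 ± 0.65 and -0.12 ± 0.30 (SE). Hlf was lower in TG within each of the 3 same-numbered pairs, and with the replicate block its SE was 0.147 (unadjusted p = 0.0246 and adjusted p = 0.551 in limma).

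Arntl2, which encodes a paralogue of ARNTL, had 7.60, 7.83 and 7.72 on TG arrays 1 to 3, against 8.12, 8.0 and 8.14 on WT arrays 1 to 3. All TG arrays lay below all WT arrays, with a difference of -0.37 ± 0.13 (SE), an unadjusted p of 0.0218 and an adjusted p of 0.99996 in limma. Rora, whose product activates Arntl through ROR elements, differed by -0.60 ± 0.39 (with the replicate block SE 0.19, unadjusted p = 0.0223 and adjusted p = 0.551 in limma). It shared the low value of Arntl on TG array 1, at 7.80, but was lowest on TG array 3, at 7.41.

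The remaining repressors overlapped between the genotypes. Nr1d2, the paralogue of Nr1d1, had 10.49, 10.60 and 9.89 on TG arrays 1 to 3, against 9.75, 10.67 and 10.45 on WT arrays 1 to 3, with a difference of 0.04 ± 0.29 (SE). Ciart and Bhlhe40, which encode repressors of the CLOCK and ARNTL pair, differed by 0.35 ± 0.37 and 0.38 ± 0.33. For both, the arrays numbered 3 lay below the other 4, and without TG array 3 the remaining TG arrays lay above all WT arrays. Bhlhe41, a paralogue of Bhlhe40, was high on both arrays numbered 3, with 6.16 in TG and 6.48 in WT, against at most 5.26 on the other arrays, and differed by -0.03 ± 0.43.

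**Figure D4:**
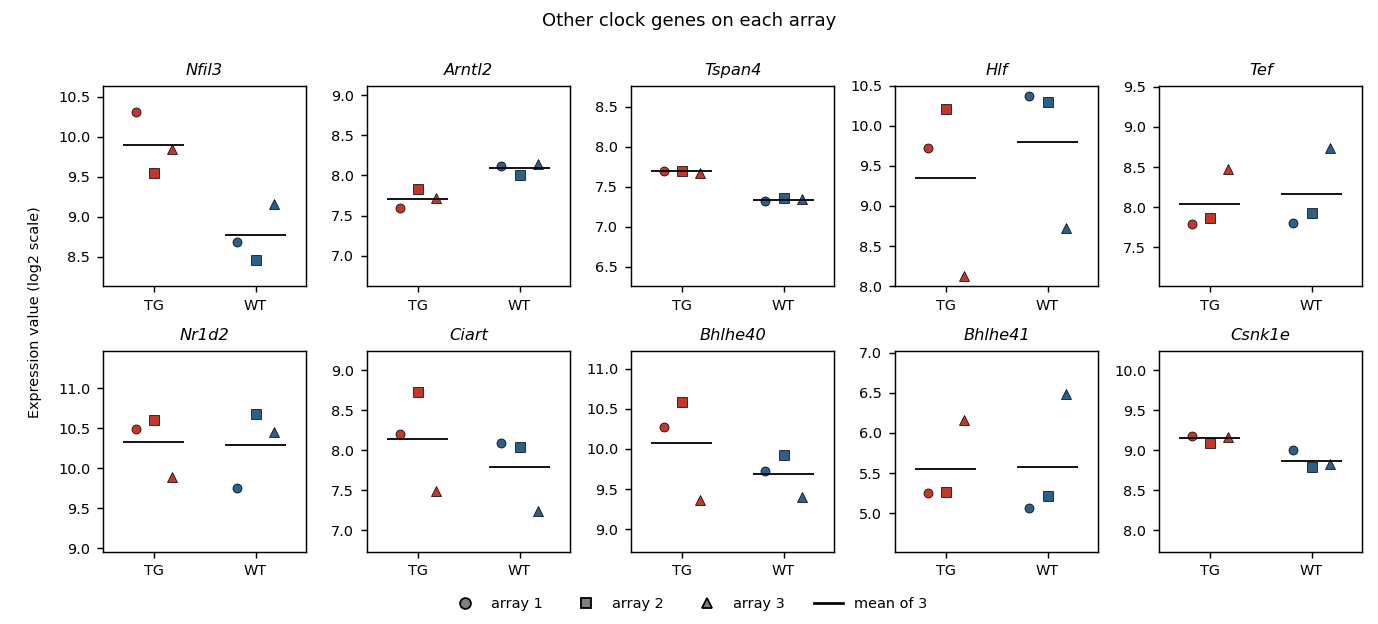
Log2 expression values of 10 other clock or clock output genes on each of the 3 TG and 3 WT arrays. Symbols mark the replicate number, bars are means of 3 arrays, and every panel spans the same height on the log2 scale. Nfil3, Tspan4 and Csnk1e had all TG arrays above all WT arrays, and Arntl2 had them below.

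Of 12 measured kinases, ubiquitin ligases and cofactors that act on clock proteins, 7 lay above 0 and 5 below. In limma 0 of the 12 had an unadjusted p under 0.05, against 2.77% of all genes. Over all genes 47.9% lay above 0. Csnk1e, which encodes a kinase that phosphorylates PER proteins, had 9.18, 9.09 and 9.16 on TG arrays 1 to 3, against 9.0, 8.79 and 8.83 on WT arrays 1 to 3. The genotypes did not overlap, with a difference of 0.27 ± 0.12 (SE) and an unadjusted p of 0.0651 in limma. Of 9 measured genes listed as clock outputs, 6 lay above 0 and 3 below. Tspan4, a tetraspanin gene, was the tightest, with 7.70, 7.69 and 7.67 on TG arrays 1 to 3, against 7.32, 7.36 and 7.35 on WT arrays 1 to 3. Its difference was 0.34 ± 0.11 (SE), with an unadjusted p of 0.0186 and an adjusted p of 0.99996 in limma. Nampt, a gene of NAD synthesis, differed by 0.61 ± 0.35, Usp2, a deubiquitinase gene, by 0.33 ± 0.30, and Marveld1 by -0.19 ± 0.12.

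Per1 is also induced by cAMP and glucocorticoids, so genes that respond to the same cues were set beside it. Of 7 such genes 5 lay above 0 and 2 below, with a median of 0.072, against 47.9% of all genes above 0. In limma 0 of the 7 had an unadjusted p under 0.05, against 2.77% of all genes. Sgk1, a glucocorticoid-induced kinase gene, had 10.57, 10.53 and 9.62 on TG arrays 1 to 3, against 9.80, 9.98 and 9.93 on WT arrays 1 to 3. As with Per1, TG arrays 1 and 2 were highest and TG array 3 was lowest. The other 6 genes did not show that order. TG array 3 was the lowest of the 6 arrays for 5 of the 7, as it was for 24.8% of all genes. Of 25 immediate early genes, which respond within minutes to stimuli and to tissue dissociation, 24 lay above 0, against 47.9% of all genes, with a median difference of 0.76. There were 11 with an unadjusted p under 0.05 and TG higher, against 1.93% of all genes, and 0 of 25 passed after adjustment. Their mean level was 10.41, 10.64 and 9.49 on TG arrays 1 to 3, against 9.57, 9.41 and 9.02 on WT arrays 1 to 3. Csrnp1 had the smallest p of this list, with 9.74, 9.97 and 8.89 on TG arrays 1 to 3, against 7.56, 7.91 and 7.59 on WT arrays 1 to 3, a difference of 1.85 ± 0.29 (SE, adjusted p = 0.99996 in limma). Fosb, Jun and Klf2, which encode transcription factors, differed by 1.38 ± 0.29, 1.21 ± 0.24 and 0.64 ± 0.14. This list, like the others, was chosen with earlier results of these data known. Any relation of these differences to the Per1 values was not tested.

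Several lists of cell type markers were lower or higher on both arrays numbered 3, while others were not. The mean of 10 suprabasal keratinocyte markers was 10.41, 11.51 and 9.51 on TG arrays 1 to 3, against 11.39, 11.62 and 9.99 on WT arrays 1 to 3. The mean of 7 T-cell markers was 8.29, 9.87 and 7.30 on TG arrays 1 to 3, against 9.01, 9.46 and 7.69 on WT arrays 1 to 3. Arntl had its 3 highest values on the 3 arrays where both lists were highest, namely TG array 2 and WT arrays 1 and 2. The mean of 6 sebocyte markers was 8.03, 8.42 and 6.76 on TG arrays 1 to 3, against 8.65, 8.45 and 6.5 on WT arrays 1 to 3. The mean of 10 bulge markers ran the other way, at 11.05, 10.24 and 11.19 on TG arrays and 10.21, 10.27 and 11.43 on WT arrays. Not all of the 10 shared this order, and Itga6 was lowest on the arrays numbered 3. Arrays of the same number also differed, as TG array 1 and WT array 1 did in the suprabasal and bulge lists. The mean of 7 melanocyte markers was 6.97, 7.31 and 7.46 on TG arrays 1 to 3, against 7.64, 7.61 and 6.79 on WT arrays 1 to 3, with no shared order. All 6 fibroblast markers lay above 0 in the TG minus WT difference, against 47.9% of all genes. Their means were 6.59, 6.5 and 6.72 on TG arrays 1 to 3, against 6.30, 6.01 and 6.29 on WT arrays 1 to 3. The mean of 7 Langerhans cell and macrophage markers was 7.16, 7.52 and 6.85 on TG arrays 1 to 3, against 7.49, 7.39 and 7.07 on WT arrays 1 to 3. The mean of 5 endothelial markers was 5.58, 5.6 and 6.20 on TG arrays 1 to 3, against 5.44, 5.30 and 6.02 on WT arrays 1 to 3. The part of these cells in the levels of Arntl, Npas2, Dbp, Hlf, Tef and Bhlhe41 was not tested.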

How the data were processed

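RNA of sorted hair follicle stem cells was measured on 6 arrays, 3 TG and 3 WT, grouped and numbered by their sample titles. For each array the authors deposited 1 log2 value per feature. The base was taken from the range of the values, so folds hold only if it is right. How features were summarised and normalized, and the genome build, is not given in the sources used here. Transcriptome Analysis Console and Affymetrix Expression Console (version 1.4.1) are named, per the submitters' processing notes, without their roles. Per the labels, total RNA was used and targets carried biotin. No detection value was used, and the number of arrays limits the precision.

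Of 41345 features, 23521 had 1 symbol, 1814 several and 16010 none. Features with 1 symbol were kept, with the brightest per gene, which left 22180 genes. RefSeq held the Entrez ID of 23328 of these features. TG was compared with WT in limma 3.58.1 (R 4.3.3, lmFit and eBayes, two-sided, group as the only term) with p-values adjusted by Benjamini-Hochberg over the 22180 genes, and called at 0.05. The fit was tested on simulated data with independent noise and with changes far larger than those of the clock genes. That test does not show whether changes as small as theirs would be found. No filter on low values was used. Single genes were also tested by exact permutation, and pairs of genes by exact permutation over arrays.

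Genes were named by rule: every member, up to 4 genes of each list with the smallest unadjusted p, certain other clock genes whatever their p, markers beside results, and the 3 genes most like Arntl, Dbp and Per1. Members, lists and rule were chosen with earlier results of these data known. Alternatives were quantile normalization, median centring, the mean of features, all features, genes above the median level, no moderation, array weights, a replicate block and leaving out arrays. The block fit treated same-numbered arrays as pairs, since their titles share replicate numbers. Deviations from genotype means correlated at 0.20, 0.67 and 0.74 between arrays numbered 1, 2 and 3, each above the limit of 0.1. These correlations come from the same data as the block p-values, which therefore only describe, and no label mentions a common litter or day. Pairs of unlike number also passed the limit. TG array 1 and WT array 2 correlated at 0.17, and WT array 1 correlated more with TG array 2 (0.50) than with TG array 1.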

Additional observations from a re-analysis of the deposited data

How the results depend on the processing

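Under 15 other settings, 0 of the 135 values of the 9 clock genes passed the adjusted threshold (lowest adjusted p = 0.294 in limma, for Arntl with array weights), and 14 changed sign against the fit of all 6 arrays. Clock, Arntl, Per1 and Per3 kept their sign throughout. With array weights Arntl was at -0.99, Cry2 was at 0.13, Nr1d1 at 0.021 and Dbp at 0.082. Without both arrays numbered 3 Arntl was at -0.69, Cry2 at 0.22, Nr1d1 at 0.19 and Dbp at 0.13. With median centring Dbp was at 0.022. Leaving out 1 array at a time gave -0.40 to 0.25 for Npas2, -0.13 to 0.045 for Cry1, -0.62 to 0.29 for Nr1d1, -0.12 to 0.20 for Dbp, 0.018 to 0.54 for Per1, -0.49 to -0.00067 for Cry2, -0.78 to -0.16 for Arntl and -0.46 to -0.21 for Per3. The number of the 9 genes above 0 was 1 with all arrays, 2 with median centring, 4 with array weights, 4 without both arrays numbered 3 and 2 to 3 without single arrays. The number without overlap was 1 with all arrays (7.2% of all genes), 0 with median centring (7.16%) and 4 without both arrays numbered 3 (37.7%). It was 1 to 3 without single arrays, against 11.4% to 23.2% of all genes. The cause of these shifts was not tested. The 1 gene past the threshold (Pla2g2a) was lost with no moderation (0 genes) and without both arrays numbered 3 (0 genes), and the count was 0 to 1 without single arrays (0 without TG array 1). Paired by the replicate block, no clock gene passed (1874 genes had an unadjusted p under 0.05, against 615 without the block), and Per3 stayed at -0.37 (unadjusted p = 0.0333, adjusted p = 0.566 in limma). All 9 genes had 1 feature with a single symbol, so the choice among such features changed nothing for them. The further Cry2 feature with several symbols was not used. The arrays give no detection calls, so low signal could not be judged.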
